A study of Mus musculus with 6 samples.

Results

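The genes described here are 38 genes of fatty acid oxidation and lipolysis, chosen by name and not by their values, out of 49548 genes listed for cancer-associated fibroblasts (CAFs) of the mouse colon. They comprise genes of fatty acid uptake and activation, the carnitine shuttle, the steps of β-oxidation, electron transfer and the release of fatty acids from stored fat. All 38 were detected and tested, and 35 belonged to the 13515 better expressed genes, defined by a mean normalized count of at least 10. Cpt1b, Ehhadh and Cd36 did not reach that mean.

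The cells came from colonic adenomas of adult C57/BL6 mice of the genotype Col6a1-cre, Rosa26-mTmG, in which the carcinogen azoxymethane (AOM) followed by the colitis-inducing agent dextran sodium sulfate (DSS) had driven tumor formation. Both groups shared this genotype and treatment. In this reporter, cells with a history of Cre turn from Tomato to GFP, so Col6a1+ CAFs were sorted as GFP+ cells and Col6a1- CAFs as Tomato+ cells, after removal of cells stained for CD45, EpCAM, CD31 or Ter119. Each subset had 3 libraries made with a 3′ mRNA kit, and each came from tumors pooled over several mice. The labels do not say whether the pools were separate, so the p-values measure the spread between these libraries. Most cells with a history of this Cre are pericytes and other cells around vessels, or fibroblasts with high PDGFRα, whereas the Tomato+ gate keeps every unmarked lineage-negative cell, trophocytes and PDGFRα-low fibroblasts among them. Libraries were made from bulk cells, so that fewer cells of a type and less RNA per cell cannot be told apart.

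Fatty acids enter β-oxidation after they are joined to coenzyme A and carried into mitochondria as carnitine esters, where a repeated cycle of dehydrogenation, hydration, dehydrogenation and thiolysis shortens them and passes electrons to the respiratory chain. Lipolysis feeds this route by cutting triglycerides in lipid droplets or in lipoproteins. In the colon, β-oxidation is best known from differentiated epithelial cells, which burn the short-chain fatty acid butyrate, and lipolysis is best known from adipocytes.

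Per library, normalized counts added up to 3039152 to 3425249. Col6a1, whose promoter drives the Cre, had 861, 1287 and 1941 normalized counts in the Col6a1+ libraries and 182, 321 and 102 in the Col6a1- libraries, with no overlap. Its log2 fold change was 2.82 (SE 0.44; limma, adjusted p = 0.00613). When libraries were paired by replicate number (the replicate block), its adjusted p was 0.0983, and 0.00557 in the blocked fit of better expressed genes alone. Col6a1+ replicate 1 stood apart from the rest, with 14530 genes at 1 count or more against 18770 to 20511 in the other libraries. It lay at least 4-fold below both other Col6a1+ libraries for 9 of the 38 genes. Among better expressed genes this held for 8 of the 35 and for 2167 of all 13515. The 9 genes were Acss1, Acaa1a, Cpt1b, Hadha, Echs1, Etfb, Slc27a1, Mgll and Pnliprp2, and only Plin2 lay as far above. In each other library at most 1 of the 38 genes was set apart this way in either direction. Estimates without this library are given below for many of the genes it moved. Without it, the log2 fold change, Col6a1+ minus Col6a1-, went from -1.29 to -0.059 for Slc27a1 and from 0.725 to 1.688 for Mgll.

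Of the 38 genes, 2 were lower in Col6a1+ than in Col6a1- CAFs, 0 were higher and 36 did not pass the test. The lower genes were Pnliprp2, a lipase related to pancreatic lipase, and Acsl3, a long-chain acyl-CoA synthetase. The test was limma on the log2 of the normalized count plus 1, two-sided, with p-values adjusted over all 26402 genes tested and called below 0.05. Among all of these genes, 2.66% were called higher and 1.96% lower, so that 2 of 38 is the count read against the latter share. At an unadjusted p below 0.05, 4 of the 38 genes had higher and 5 had lower values. Over all 26402 genes tested, 4234 had an unadjusted p below 0.05 in limma, in either direction. The median log2 fold change, Col6a1+ minus Col6a1-, was -0.27 over the 38 genes and -0.27 over all genes tested. In 23 of the 38 genes the estimate was within 1 log2 unit of 0, and the median distance from an estimate to its 95% confidence limit was 1.24 log2 units. That distance belongs to unadjusted intervals and is not the limit of the adjusted test. Larger estimates also went uncalled, such as -2.99 for Acss1 and 2.35 for Cd36. Smaller and some larger differences could therefore be missed.

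The libraries of the subsets did not overlap in 7 of the 38 genes, all of them better expressed. Acsl4 and Acaa2 had all Col6a1+ libraries above all Col6a1- libraries, and Acsl1, Acsl3, Acss1, Pnpla2 and Pnliprp2 had all of them below. Over all genes tested, 7.91% lay fully higher and 11.6% fully lower, and among the better expressed genes the shares were 14.2% and 17.6%. The 2 genes that lay higher and the 5 that lay lower are to be read against these shares, which their counts do not stand out from.

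**Figure D1:**
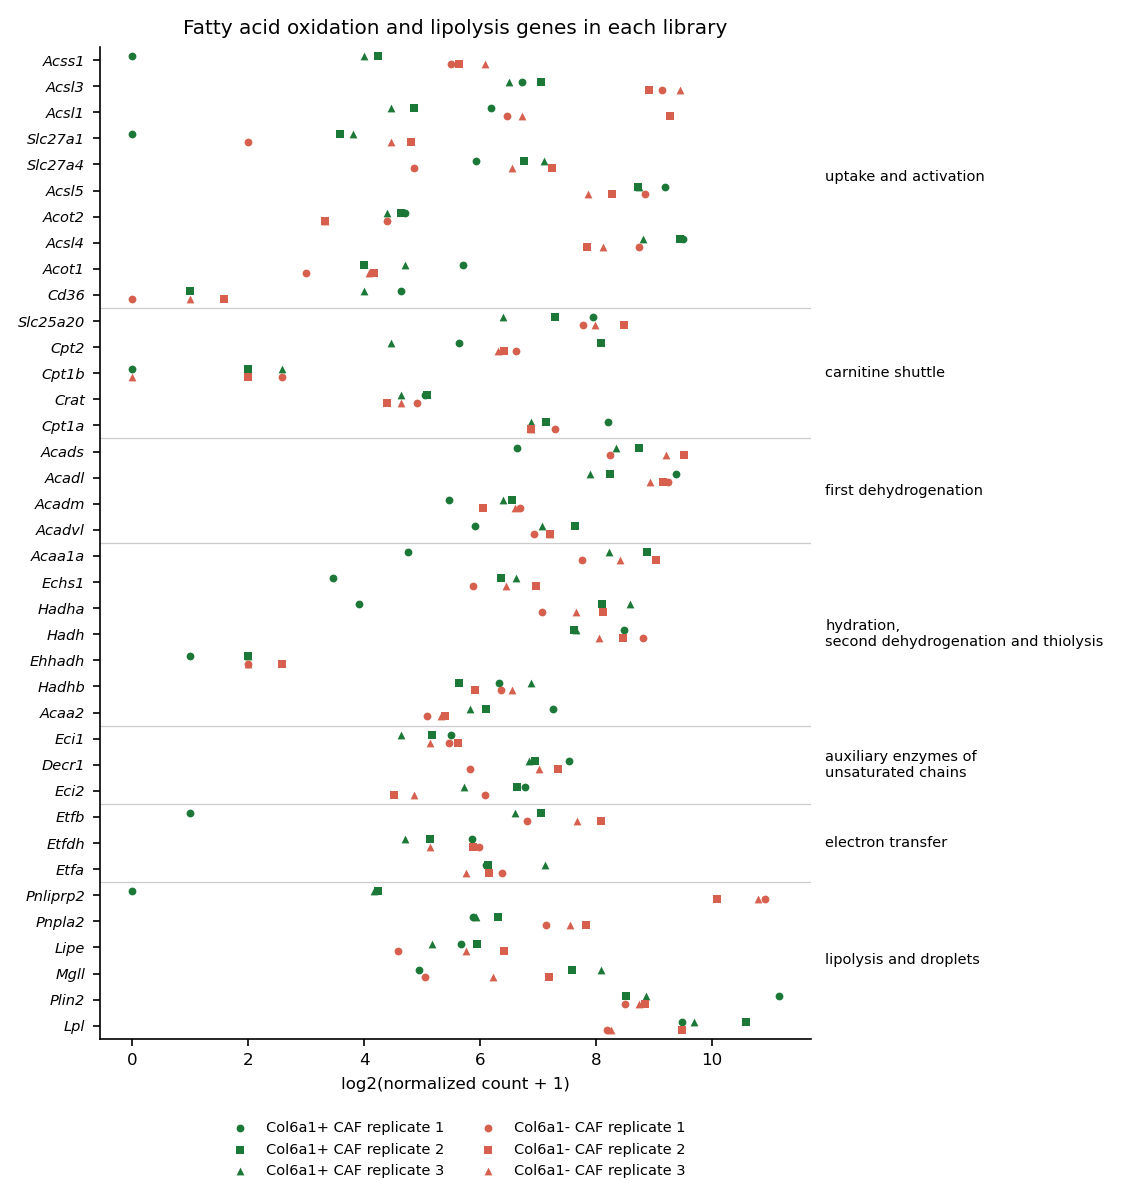
The log2 of the normalized count plus 1 (horizontal axis) of the 38 genes in each library, grouped by role, with Col6a1+ CAFs in green, Col6a1- CAFs in red and a symbol per replicate number. Pnliprp2 and Acsl3 show the widest gap between the subsets, and Col6a1+ replicate 1 (green circle) lies far to the left for 9 genes, Etfb and Hadha among them.

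Pnliprp2 (ENSMUSG00000025091, mm10 chr19:58759723-58777533, plus strand) encodes a secreted lipase that acts on triglycerides and galactolipids. It had 0, 18 and 17 normalized counts in the Col6a1+ libraries and 1918, 1090 and 1777 in the Col6a1- libraries. Every Col6a1- library thus lay far above every Col6a1+ library, and the gene was low in all of the latter. The means were 11.7 ± 10.1 and 1595 ± 443 (SD, n = 3 each). This made a log2 fold change of -7.79 (SE 0.95; limma, adjusted p = 0.00191). Since a library is at 0, the size depends on the pseudocount, and it was -8.95 with a pseudocount of 0.1. It was -6.39 without Col6a1+ replicate 1, the library at 0, and -8.51 and -8.47 when Col6a1+ replicate 2 or 3, respectively, was left out.

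Acsl3 (ENSMUSG00000032883, mm10 chr1:78657825-78707743, plus strand) activates long-chain fatty acids at the endoplasmic reticulum and on forming lipid droplets. Its normalized counts were 104, 131 and 89 in the Col6a1+ libraries and 562, 481 and 694 in the Col6a1- libraries. The spread within each subset was small beside the gap, and the means were 108 ± 21.3 and 579 ± 107.5 (SD, n = 3 each). The log2 fold change was -2.41 (SE 0.31; limma, adjusted p = 0.00232), and it stayed between -2.56 and -2.28 when any library was left out. Utp14b overlaps Acsl3 on the same strand and was listed with 115, 47 and 53 counts in the Col6a1+ libraries and 224, 234 and 277 in the Col6a1- libraries, so the reads of the pair may not be fully separable.

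Both calls depended on the fit. With the replicate block, Pnliprp2 had an adjusted p of 0.0708 and Acsl3 one of 0.0616, and no gene of all 26402 passed, although 4418 had an unadjusted p below 0.05. In the blocked fit of better expressed genes alone, it was 0.00213 and 0.0031, respectively. When 1 library was left out, Pnliprp2 had an adjusted p of 0.0503 to 0.169, and Acsl3 one of 0.0487 to 0.14, below 0.05 only without Col6a1- replicate 2.

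The bases just upstream of the start sites of both lower genes differ in composition and are shown for that reason, with each CG pair in capitals. The sequences are the 200 bases before the start in RefSeq (GRCm38.p6), 5′ to 3′ on the plus strand, at chr1:78657625-78657824 for Acsl3 and chr19:58759523-58759722 for Pnliprp2.
Acsl3: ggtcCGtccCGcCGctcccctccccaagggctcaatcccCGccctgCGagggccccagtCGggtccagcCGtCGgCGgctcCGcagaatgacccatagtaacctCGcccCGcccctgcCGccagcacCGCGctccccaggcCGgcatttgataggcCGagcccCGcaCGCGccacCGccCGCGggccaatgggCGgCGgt
Pnliprp2: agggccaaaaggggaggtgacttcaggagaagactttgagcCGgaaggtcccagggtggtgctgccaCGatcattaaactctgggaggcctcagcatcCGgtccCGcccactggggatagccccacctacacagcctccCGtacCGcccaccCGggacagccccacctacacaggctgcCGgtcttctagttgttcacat
These 200 bases hold 25 CG pairs in Acsl3 and 8 in Pnliprp2. Over 250 upstream bases, Acsl3 had 75.6% G plus C and 28 CG pairs and Pnliprp2 had 58.4% and 8, whereas the medians over all 32851 RefSeq starts were 52.4% and 6.

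Many oxidation genes are known targets of PPAR and estrogen-related nuclear receptors, which bind copies of the half-site AGGTCA. Upstream sequence was matched for 33 of the 38 genes. The half-site occurred on either strand within 250 bases upstream of 6 of the 33 genes (Acadm, Acadvl, Cd36, Cpt1a, Echs1 and Plin2) and of 14% of all starts. The units differ, since a gene counted if any of its starts matched (38 starts for the 33 genes), whereas the shares over all starts are per start. The extended element TCAAGGTCA, which contains the half-site, occurred in 0 of 33 genes and 0.387% of all starts. The direct repeat of the half-site with 1 base between the copies occurred in 0 of 33 and 0.0335%. None of the 6 genes passed the test between the subsets.

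Among the 10 genes of uptake and activation, 1 was lower (Acsl3), 0 were higher and 9 did not pass. Acsl4, a synthetase that prefers arachidonic acid and other polyunsaturated fatty acids, had the highest mean of the group. It had 725, 694 and 446 normalized counts in the Col6a1+ libraries and 426, 230 and 278 in the Col6a1- libraries. All Col6a1+ values lay above all Col6a1- values, by a margin of 446 to 426 at the nearest pair. The log2 fold change was 1.01 (SE 0.34) with an adjusted p in limma of 0.139, and of 0.0491 in the blocked fit of better expressed genes, within a range of 0.0491 to 0.459 over all alternatives.

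Acsl1, the synthetase best known from heart, liver and fat, lay in the other direction. Its normalized counts were 72, 28 and 21 in the Col6a1+ libraries and 87, 618 and 104 in the Col6a1- libraries, where replicate 2 stood far above the others. The estimated log2 fold change was -2.31 (SE 0.74; limma, adjusted p = 0.121), and it was -1.42 without Col6a1- replicate 2. Acss1, which activates acetate inside mitochondria, had 0, 18 and 15 counts against 44, 49 and 67, with a log2 fold change of -2.99 (SE 1.08; limma, adjusted p = 0.176), and -1.62 without Col6a1+ replicate 1. Acsl5, a synthetase of the outer mitochondrial membrane and endoplasmic reticulum, overlapped between the subsets with 422 to 579 against 231 to 456 counts. The 4 long-chain synthetases therefore did not share a direction, with Acsl1 and Acsl3 at negative and Acsl4 and Acsl5 at positive estimates.

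The fatty acid receptor Cd36 was low, with 24, 1 and 15 counts in the Col6a1+ libraries and 0, 2 and 1 in the Col6a1- libraries. Its values overlapped because of Col6a1+ replicate 2 and missed the threshold (limma, adjusted p = 0.356). The transport proteins Slc27a1 and Slc27a4, which take up long-chain fatty acids, ranged over 0 to 13 and 60 to 136 counts in the Col6a1+ libraries and over 3 to 27 and 28 to 150 in the Col6a1- libraries. The thioesterases Acot1 and Acot2, which free fatty acids from coenzyme A in the cytosol and in mitochondria, had 15 to 51 and 20 to 25 counts against 7 to 17 and 9 to 20. All of these overlapped between the subsets. The transcript end of Slc27a1 holds repeat sequence that matches 350 other genes, so its counts are uncertain.

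None of the 5 genes of the carnitine shuttle passed the test, and all 5 overlapped between the subsets. The carrier Slc25a20, which exchanges acylcarnitine for carnitine across the inner membrane, had the highest mean, with 247, 155 and 83 counts in the Col6a1+ libraries and 219, 356 and 253 in the Col6a1- libraries. Its log2 fold change was -0.87 (SE 0.42; limma, adjusted p = 0.352), and -1.24 without Col6a1+ replicate 1. The rate-limiting Cpt1a had 295, 140 and 117 counts against 155, 117 and 117. Cpt2, which reforms acyl-CoA in the matrix, had 49, 270 and 21 against 97, 84 and 78, and its highest and lowest values both lay within the Col6a1+ libraries. The acetyl transferase Crat had 24 to 33 against 20 to 29 counts. Cpt1b, the muscle form, was at 0 to 5 counts in either subset and lies within the transcribed span of Chkb, whose reads it may share.

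None of the 4 acyl-CoA dehydrogenases, which carry out the first step of the cycle on chains of different length, passed the test, although all 4 had negative estimates. Without Col6a1+ replicate 1, 2 of these turned positive, Acadm at 0.03 and Acadvl at 0.24 on the log2 scale. The long-chain enzyme Acadl had 665, 303 and 236 counts in the Col6a1+ libraries and 607, 569 and 487 in the Col6a1- libraries. The single Col6a1+ library above the Col6a1- range was replicate 1. Its log2 fold change was -0.61 (SE 0.39; limma, adjusted p = 0.503), and -1.04 without that library.

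The short-chain enzyme Acads, which acts on the chain length of butyrate, had 99, 425 and 325 counts against 301, 735 and 589. Within each replicate number the Col6a1+ value was the lower of the pair, while the subsets overlapped. The subsets differed by -1.08 on the log2 scale (SE 0.54) with an adjusted p in limma of 0.363, and of 0.0385 in the blocked fit of better expressed genes, within a range of 0.0385 to 0.68 over all alternatives. Without Col6a1+ replicate 1 the difference was -0.45. The medium-chain Acadm had 43 to 93 against 65 to 102 counts, and the very-long-chain Acadvl had 59 to 198 against 121 to 147, with replicate 1 the lowest Col6a1+ library for both. Acadvl overlaps Dvl2, and strand use in counting is not given in the sources used here.

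Of the 7 genes of hydration, the later dehydrogenation and thiolysis, 0 passed the test and 1 did not overlap. This was Acaa2, the mitochondrial thiolase, with 152, 68 and 56 counts in the Col6a1+ libraries and 33, 41 and 39 in the Col6a1- libraries. Its log2 fold change was 1.13 (SE 0.50; limma, adjusted p = 0.294), and 0.70 without Col6a1+ replicate 1, its highest library. Acaa1a, the peroxisomal thiolase and the gene of highest mean here, had 26, 471 and 296 counts against 215, 522 and 340. It was low in Col6a1+ replicate 1 alone, and its last 300 transcript bases are 94.3% identical to those of Acaa1b, which was at 0 to 15 counts. It also overlaps Myd88, which runs antisense to it and had 381, 316 and 209 against 151, 168 and 94 counts.

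Hadha and Hadhb encode the α and β subunits of the mitochondrial trifunctional protein. Hadha had 14, 274 and 382 counts in the Col6a1+ libraries and 133, 276 and 201 in the Col6a1- libraries, so that the Col6a1+ libraries spanned the whole range of the Col6a1- ones. Hadhb had 49 to 116 against 59 to 93 counts, and 166 bases of its transcript end match the pseudogene Gm13910 at 99.4% identity. The dehydrogenase Hadh had 195 to 356 against 265 to 448, the hydratase Echs1 10 to 97 against 58 to 124, and the peroxisomal enzyme Ehhadh 1 to 3 against 3 to 5.

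The 3 auxiliary enzymes, which prepare unsaturated chains for the cycle, did not pass the test. The reductase Decr1 had 184, 123 and 114 counts in the Col6a1+ libraries and 56, 161 and 128 in the Col6a1- libraries. The isomerase Eci2 had 108, 99 and 52 against 67, 22 and 28, with 1 Col6a1- library inside the Col6a1+ range, and a log2 fold change of 1.22 (SE 0.55; limma, adjusted p = 0.31). Its transcript end is 95.5% identical over 290 bases to that of Eci3, which was at 0 to 3 counts. The isomerase Eci1 had 24 to 44 against 34 to 48 counts, which are uncertain since its transcript end matches 64 other genes.

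The 3 genes of electron transfer, which hand the electrons of the dehydrogenases to ubiquinone, did not pass the test either. The flavoprotein subunit Etfb had 1, 132 and 96 counts in the Col6a1+ libraries and 111, 272 and 204 in the Col6a1- libraries, and its partner subunit Etfa had 68, 69 and 138 against 82, 70 and 53. The estimate for Etfb, a log2 fold change of -2.64 (SE 1.28; limma, adjusted p = 0.35), was -0.70 without Col6a1+ replicate 1. Mir7051 lies inside Etfb on the same strand and was listed with nearly the same counts (1, 129 and 93 against 110, 264 and 200). The oxidoreductase Etfdh had 25 to 57 against 34 to 62 counts.

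**Figure D2:**
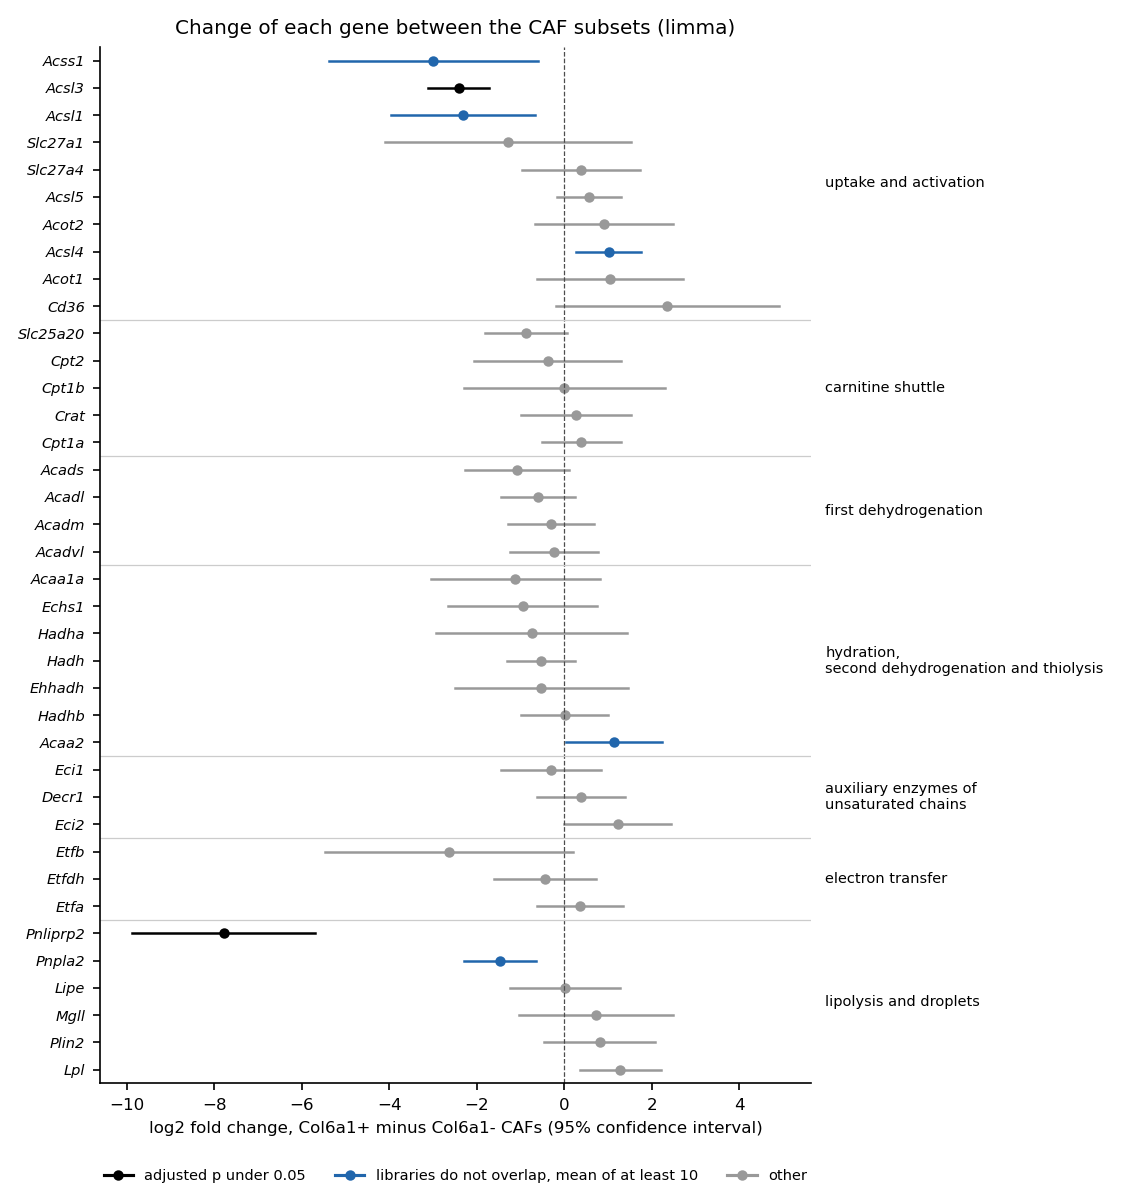
The log2 fold change of each of the 38 genes, Col6a1+ minus Col6a1- CAFs, as a point with its 95% confidence interval from limma, grouped by role (3 libraries per subset). Black marks the 2 genes with an adjusted p below 0.05, blue the other genes whose libraries did not overlap, and most remaining intervals span 0.

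Among the 6 genes of lipolysis and lipid droplets, 1 was lower (Pnliprp2), 0 were higher and 5 did not pass. Pnpla2, the adipose triglyceride lipase that starts the breakdown of stored fat, had 58, 78 and 60 counts in the Col6a1+ libraries and 139, 226 and 187 in the Col6a1- libraries. The subsets did not overlap, and the means were 65.3 ± 11 and 184 ± 43.6 (SD, n = 3 each). This made a log2 fold change of -1.46 (SE 0.37; limma, adjusted p = 0.0518), just above the threshold. In the fit of the 13515 better expressed genes alone its adjusted p was 0.0316, and over all alternatives it ranged from 0.0258 to 0.19. In that fit 3 of the 35 genes were lower and 0 higher, against 4.5% and 6.03% of all genes in it.

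Lpl, the lipoprotein lipase that frees fatty acids from circulating lipoproteins, had 714, 1533 and 828 counts in the Col6a1+ libraries and 290, 717 and 304 in the Col6a1- libraries. The subsets met at 714 and 717 counts, and replicate 2 was the highest library of both. The subsets differed by 1.28 on the log2 scale (SE 0.42) with an adjusted p in limma of 0.131, and of 0.0113 in the blocked fit of better expressed genes, within a range of 0.0113 to 0.532 over all alternatives. The blocked fit of better expressed genes called 2 of the 35 genes higher (Acsl4 and Lpl) and 4 lower (Acads, Acsl3, Pnpla2 and Pnliprp2), against 7.26% and 6.44% of all genes in it.

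The droplet coat protein Plin2 had 2271, 366 and 463 counts in the Col6a1+ libraries and 361, 457 and 428 in the Col6a1- libraries. Its high mean in Col6a1+ CAFs came from replicate 1, and the log2 fold change of 0.81 (SE 0.57; limma, adjusted p = 0.555) was -0.006 without it. The pseudogene Gm12551, 93.9% identical to its transcript end over 280 bases, was at 3 to 19 counts. The hormone-sensitive lipase Lipe, which takes over after Pnpla2, had 35 to 61 against 23 to 84 counts. The monoglyceride lipase Mgll, which ends the sequence, had 30, 192 and 272 against 32, 145 and 74. The triglyceride lipases Pnpla2 and Pnliprp2 thus lay lower in Col6a1+ CAFs, Lpl had higher estimates there, and Lipe and Mgll overlapped widely.

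**Figure D3:**
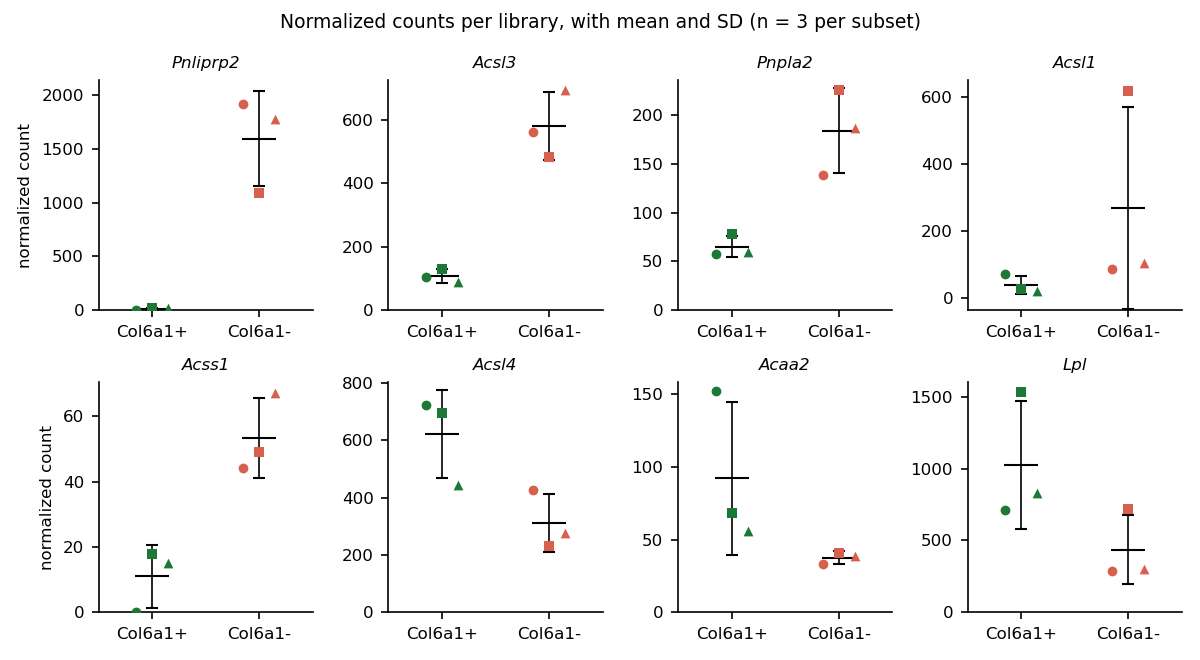
Normalized counts per library (vertical axes, a scale for each gene) of the 7 genes whose libraries did not overlap and of Lpl, with Col6a1+ CAFs in green, Col6a1- CAFs in red, and circles, squares and triangles for replicates 1, 2 and 3. Horizontal bars are means and whiskers SD (n = 3), and the Acsl1 panel shows the single Col6a1- library at 618 counts that sets its mean.

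Leaving out Col6a1+ replicate 1 moved the median log2 fold change of the 38 genes from -0.27 to 0.01 and that of all genes from -0.27 to -0.12. No gene of the 38, and none of all 26402, passed the adjusted test with the 5 remaining libraries. At an unadjusted p below 0.05, 10 of the 38 genes and 5073 of all genes were left, and Pnliprp2, Acsl3 and Pnpla2 had log2 fold changes of -6.39, -2.40 and -1.39.

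Neighbouring pathways were described with a list of 80 other genes, of which 77 were tested and 58 were better expressed. Ucp3, Fgf21 and Acsm1 were at 0 in every library. Of the 77, 1 was lower in Col6a1+ CAFs, 0 were higher and 76 did not pass. Over all genes tested, 1.96% were called lower and 2.66% higher. At an unadjusted p below 0.05 in limma, 13 of the 77 were lower and 5 higher, beside 4234 of all 26402 genes in either direction. The lower gene was Pdk4, a kinase that holds back glucose oxidation when fat is burnt, with 0, 4 and 1 counts in the Col6a1+ libraries and 61, 13 and 82 in the Col6a1- libraries. Its log2 fold change was -4.27 (SE 1.06; limma, adjusted p = 0.0478), with an adjusted p of 0.172 under the replicate block and of 0.0172 to 0.314 over all alternatives. Leaving out Col6a1+ replicate 1 gave a log2 fold change of -3.72, Col6a1+ replicate 2 one of -4.88, and Col6a1- replicate 2 one of -5.06. The median log2 fold change of the list was -0.37, against -0.27 over all genes tested.

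Among the better expressed genes of the list, 14 lay fully lower in the Col6a1+ libraries and 4 fully higher, beside the shares of 17.6% and 14.2% given above. Of the regulators, Ppargc1a, a coactivator of oxidative genes, had 3, 0 and 4 counts against 27, 24 and 88 (log2 fold change -3.87, SE 1.00; limma, adjusted p = 0.0567). Its partner receptor Esrra had 27, 73 and 64 against 77, 199 and 127. The kinase subunit Prkaa2 and the malonyl-CoA decarboxylase Mlycd lay lower as well, and the receptor Rxra higher, with 349, 197 and 205 against 129, 137 and 69 counts.

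Bdh1, a dehydrogenase of ketone bodies, had 0, 60 and 69 counts against 114, 228 and 214 (log2 fold change -3.46, SE 1.33; limma, adjusted p = 0.209), and its log2 fold change was -1.45 without Col6a1+ replicate 1, the library at 0. In peroxisomes, the thiolase Scp2 had 93, 167 and 140 against 250, 314 and 414 counts, and Pecr lay lower too. Among the others, those that lay lower included Mecr and Acot13 of mitochondrial acyl-CoA metabolism, Cideb of lipid droplets and Dgat2 of triglyceride synthesis, and those that lay higher were Acadsb, Hsd17b10 and Lpin1.

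**Figure D4:**
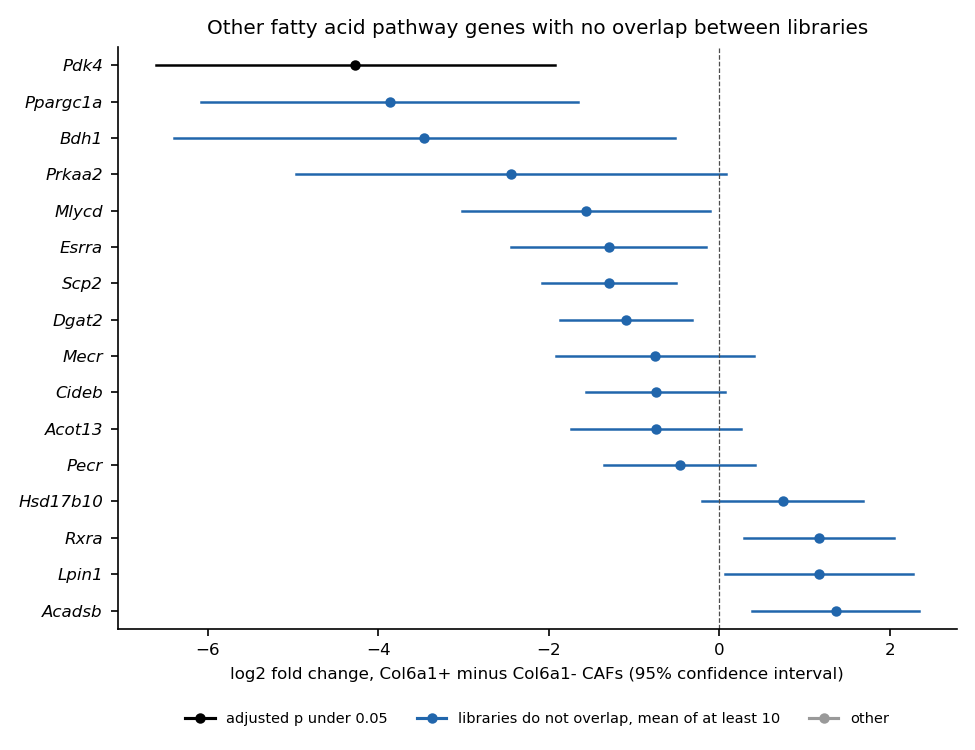
The log2 fold change, Col6a1+ minus Col6a1- CAFs, with its 95% confidence interval from limma, of 16 better expressed neighbouring pathway genes whose libraries did not overlap (3 libraries per subset). Of these, 12 lie left of 0 and 4 right of it, and only Pdk4 (black) has an adjusted p below 0.05.

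Markers of other cell types were summed in each library, since the sort removes cells only by surface staining. Epithelial markers were present despite the exclusion of EpCAM+ cells, with sums of 6542 to 8968 counts in the Col6a1+ libraries and 28192 to 46712 in the Col6a1- libraries. All 15 had negative estimates, 9 were lower by the limma test and 12 did not overlap. Epcam itself had 1074, 884 and 615 against 3107, 4129 and 3730 counts. The epithelial sum thus moved in the same direction as Pnliprp2, Acsl3, Pnpla2, Acsl1, Acss1 and Pdk4, and its part in these results was not tested.

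Of 8 adipocyte markers, the defining genes Adipoq, Lep and Cfd were at 0 in every library. The other 5 summed to 72 to 246 counts in the Col6a1+ and 92 to 158 in the Col6a1- libraries, and 1 of them, Pck1, was lower. Fabp4, also among them, was present in every library and overlapped, with 203, 64 and 169 against 90, 68 and 74 counts. Plin1, the droplet coat protein of adipocytes, had 43 counts in Col6a1+ replicate 1, the library with high Plin2, and 0 to 4 in the others. Immune markers summed to 163 to 457 against 382 to 993 counts (0 of 10 passed, 3 at an unadjusted p below 0.05). Erythroid markers summed to 110 to 1713 against 281 to 482 (0 of 5 passed, 0 at an unadjusted p below 0.05). Endothelial markers summed to 120 to 342 against 130 to 348. Of these 8, only Tie1 was higher, with 220, 56 and 152 against 1, 7 and 21 counts. The other 7 had negative estimates, 2 of them at an unadjusted p below 0.05 in limma.

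On the stromal side, 4 of 7 pan-fibroblast markers were higher in Col6a1+ CAFs, with sums of 40535 to 44685 against 8675 to 15769 counts. All 8 mural markers were higher, with sums of 51602 to 104287 against 1521 to 3960. Of 3 glial markers 0 passed, 1 at an unadjusted p below 0.05, with sums of 49 to 73 against 19 to 52, and of 2 tested mesothelial markers 0 passed, 1 at an unadjusted p below 0.05, with sums of 1 to 4 against 5 to 33. Fibroblast markers were thus present in every library, as the labelled cell type implies, with lower sums in Col6a1- CAFs. In every Col6a1- library the epithelial sum (28192 to 46712, 15 markers) was above the pan-fibroblast sum (8675 to 15769, 7 markers), though the lists differ in length. Mural and fibroblast sums moved with Lpl, Acsl4 and Acaa2, and their part in those values was not tested. With the replicate block, 0 of the 23 markers called in all lists passed, Pck1 (adjusted p = 0.107) and Tie1 (adjusted p = 0.144) included, and in the blocked fit of better expressed genes all 23 did.

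**Figure D5:**
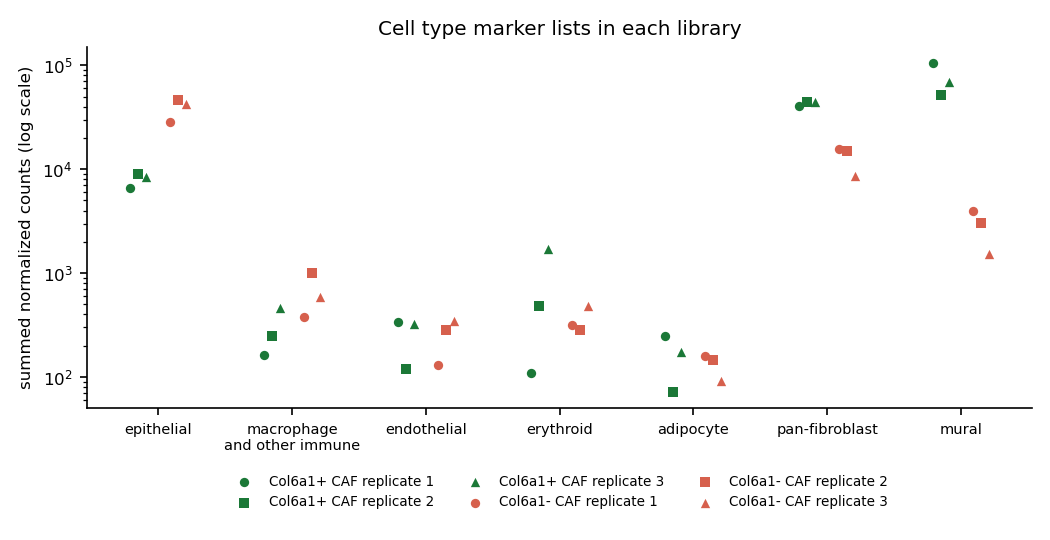
Summed normalized counts (log axis) of 7 cell type marker lists in each library, with Col6a1+ CAFs in green, Col6a1- CAFs in red and a symbol per replicate number. Epithelial sums are higher in all Col6a1- libraries, and pan-fibroblast and mural sums are higher in all Col6a1+ libraries. The immune, adipocyte, endothelial and erythroid sums overlap.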

How the data were processed

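The authors prepared 3′ mRNA libraries (QuantSeq, Ion Torrent) from sorted CAFs, mapped reads to mm10 with TopHat2 and then Bowtie2, counted them with GenomicRanges, and normalized the counts by DESeq in metaseqR. They deposited the log2 of the normalized count plus 1 per gene and library, and 100% of the values gave whole normalized counts. Raw read totals are not given in the sources used here, so the depth of each library is unknown. The authors' deposited p-values, false discovery rates and fold changes, and 6 further per-sample columns, were not used.

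Groups and replicate numbers came from the labels. A linear model of the 2 subsets was fitted to the deposited log2 values with limma 3.58.1 (R 4.3.3, empirical Bayes with a trend, two-sided). It covered 26402 genes (a total of 1 normalized count or more), with Benjamini-Hochberg adjustment. The model was also run on simulated counts of better expressed genes with no library set apart. That run does not bear on low counts or on a library like Col6a1+ replicate 1. No p-value was adjusted over a list alone. Same-numbered libraries of the 2 subsets deviated together from their group means (correlations of 0.245, 0.1255 and 0.144). Unlike-numbered libraries had correlations of -0.245 to 0.1495. The highest of these, Col6a1+ replicate 2 with Col6a1- replicate 3, was above the same-numbered values of replicates 2 and 3. Only replicate 1 thus stood out as a pair. The main fit left the libraries unpaired, and the numbers were treated as pairs only in the fits with the replicate block. The blocked value is given beside the calls it changes (for marker lists, as a count). The labels give no other batch.

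All 38 genes are named. Values per library are given for genes with an adjusted p below 0.05, genes with a mean of at least 10 whose libraries did not overlap, and the gene of highest mean in each role, and values of other genes were added after they were seen. Neighbouring pathway genes were named by the first 2 criteria, and 2 of them are counted but not reported here. The genes, lists and markers were chosen with earlier results of these data known. Alternatives were scaling to library size alone, a mean of at least 10, a pseudocount of 0.1, limma-voom, the replicate block, and each library left out. Upstream sequences were taken from RefSeq, and transcript ends were compared with BLAST 2.17.0 (at least 90% identity over 100 bases).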

Additional observations from a re-analysis of the deposited data

How the results depend on the processing

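The count of the 38 genes called higher was 0 and that called lower 2. The latter was 3 with library size alone, with a mean of at least 10 and with limma-voom, where Pnpla2 was added each time, and 2 with a pseudocount of 0.1. The replicate block gave 0 lower, and the replicate block with a mean of at least 10 gave 2 higher and 4 lower. Leaving out each library in turn gave 0 higher and 0 to 1 lower. In the neighbouring pathways, 1 gene was called lower. The count was 3 with library size alone, 3 with a mean of at least 10, 0 with a pseudocount of 0.1, 6 with limma-voom, 0 with the replicate block, 5 with the replicate block and a mean of at least 10, and 0 to 1 with a library left out, and none was called higher in any of these fits. The causes of these changes were not tested.

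Over 56 named genes, 607 of 666 alternative values kept their direction and side of the threshold, 21 fell short of it, 18 passed it and 20 turned their sign, none of them called. With a library left out, the log2 fold change ranged from -0.52 to 0.03 for Acadm, -0.63 to 0.24 for Acadvl, -1.92 to 0.15 for Acaa1a, -0.006 to 0.66 for Cpt1a, -1.61 to 0.73 for Hadha, -1.52 to 0.056 for Echs1 and -0.006 to 1.31 for Plin2, each with its turned sign without Col6a1+ replicate 1. It ranged from -1.39 to 0.42 for Cpt2, which turned without Col6a1+ replicate 3, and from -0.065 to 0.69 for Decr1 and -0.30 to 0.89 for Slc27a4, which turned without Col6a1- replicate 1. Hadhb, at -0.29 to 0.32, turned without Col6a1+ replicate 1 or 3 or Col6a1- replicate 2, and Lipe, at -0.48 to 0.43, without Col6a1+ replicate 1 or 2 or Col6a1- replicate 1. With library size alone, Hadhb was at -0.048 and Lipe at -0.036, and with limma-voom at -0.037 and -0.061.

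With 3 libraries per subset, and 1 Col6a1+ library with fewer genes detected, most single-gene estimates are wide, and a p above the threshold does not show that the subsets are alike. The replicate block over all genes ended every call, those of Pnliprp2, Acsl3, Pdk4, Col6a1 and the markers included, and of the 38 genes it newly called Acsl4, Lpl, Acads and Pnpla2 with a mean of at least 10. Counts at transcript ends cannot be compared between genes. The values are normalized counts, so the counting error of each library is not known.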
